A study of Oncorhynchus mykiss with 42 samples.

Results

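In rainbow trout testis fragments at stages I-II of development, some cDNA clones were higher with luteinizing hormone (LH) than without it. Their number depended on the model, and LH could not be told apart from a low control signal on its arrays. The signal of 2 of these clones rose by about 8 to 10 times. Most of the measured falls lay in 5 of the 64 blocks of the membrane. The 12 arrays described here are the 6 titled as stage I-II testis with LH and the 6 titled as stage I-II testis control (Ctrl), out of 42 arrays in the series. The arrays were chosen by these titles alone. All 12 cultures were pieces of whole testis from an all-male trout population, kept for 96 h at 12 °C with a medium change at 48 h. The LH cultures received 500 ng/mL of purified salmonid LH and the Ctrl cultures received no hormone.

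The series also holds fragments before culture (T0), fragments with 500 ng/mL of follicle-stimulating hormone (FSH), and the same 4 groups for stage III testis. Each T0 group had 3 arrays and each other group 6. The labels give the incubations as 6 replicates whose fragments were distributed at random, and they do not say which fish a culture came from. The p-values below therefore measure the spread between these samples, which may be technical.

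LH is a pituitary gonadotropin that binds its receptor on Leydig cells, the steroid-producing cells between the testis tubules, and acts there through cyclic AMP to raise steroid synthesis. FSH acts on Sertoli cells, which nurse the germ cells, and in salmonid fish also on Leydig cells. Testes at the early stages hold mainly spermatogonia, whereas those at stage III also hold germ cells in meiosis.

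Transcripts were measured on nylon membranes spotted with cDNA clones and hybridised with radioactively labelled cDNA from 5 µg of RNA. The values used are those of the deposited table, on a log2 scale, for the 8175 clones that hold values. Clones are given by their IDs, because the files used here do not pair them with genes, and for this reason 0 gene lists and 0 marker lists could be tested. The labelled tissue could not be checked against its markers either. In RNA from whole fragments, fewer cells of a type and less RNA per cell cannot be told apart. Every adjusted p below is from limma with Benjamini-Hochberg adjustment over the 8175 clones, and a clone was called where it was under 0.05.

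Before the results, 2 differences between the LH and Ctrl arrays need stating. The median signal of the repeated control positions was 103.5, 124 and 148 intensity units (lowest, median, highest) on the 6 LH arrays and 231.5, 271 and 420 on the 6 Ctrl arrays. The groups did not overlap (two-sided exact permutation test, p = 0.00216, the smallest that 6 against 6 arrays can give). The FSH arrays of the same stage read 178 to 236.5, above LH and overlapping Ctrl. In stage III the LH arrays read 83 to 182 and the Ctrl arrays 93.5 to 166, with overlapping groups. Between the LH and Ctrl arrays of stage I-II, LH and the low control signal cannot be told apart. The same holds for FSH against LH in this stage, where the control signals did not overlap. The 3 T0 arrays of stage I-II read 550.5, 685 and 955.5, above every Ctrl array. Culture and control signal therefore cannot be told apart between T0 and Ctrl. The median clone signal was 112 to 171 units with LH and 132 to 167 in Ctrl, with overlapping groups (two-sided exact permutation test, p = 0.143). The share of clone positions above background was 67.4% to 73.4% with LH and 70.8% to 74.5% in Ctrl (two-sided exact permutation test, p = 0.102).

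The other difference is a shift by position on the membrane. In blocks P01 to P04, the last block column, and in block M02, the median clone differed from the Ctrl mean by -0.58 to -0.15 log2 on the 6 LH arrays and by -0.07 to 0.08 on the 6 Ctrl arrays. Of the FSH arrays of the same stage, replicates 26, 27 and 30 lay at -0.43, -0.37 and -0.20, and the other 3 between -0.01 and 0.12. The 6 LH arrays were thus all below the 6 Ctrl arrays in these blocks, and the FSH arrays were split. The part of the control signal in the results was not tested beyond a fit with it as a covariate, and counts without the blocks and with equal block medians are given beside the results.

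**Figure D1:**
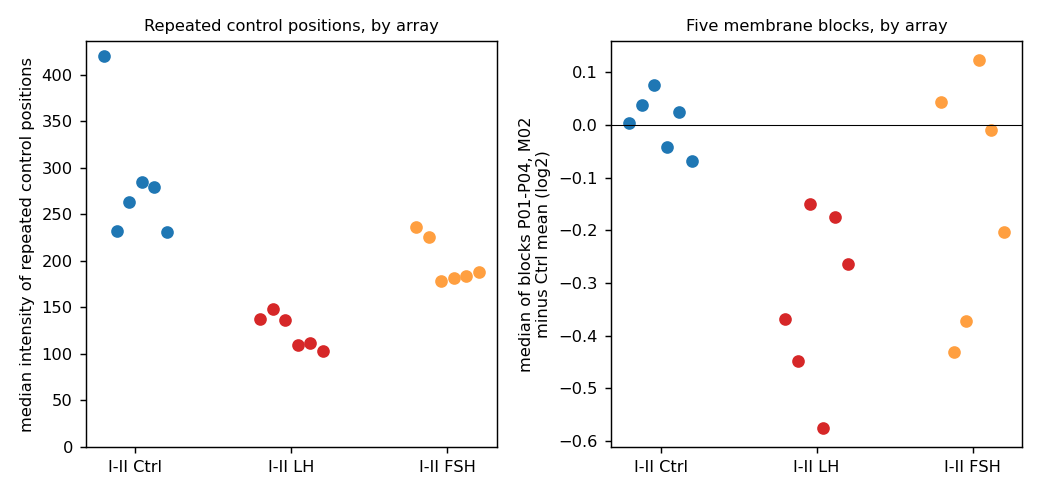
Each point is 1 stage I-II array; the left axis gives the median intensity of the repeated control positions, and the right axis the median of clones in blocks P01 to P04 and M02 minus the Ctrl mean (log2). The LH arrays lie at 103.5 to 148 units against 231.5 to 420 in Ctrl, and at -0.58 to -0.15 log2 against -0.07 to 0.08.

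With LH, 136 of the 8175 clones rose (1.66%) and 107 fell (1.31%), 243 in all (2.97%). An unadjusted p under 0.05 was reached by 1547 clones (18.9%). The count moved with the model: 652 clones were called when the 12 arrays were fitted without the other groups, 922 with array weights and 49 with the control signal as a covariate. Most changes were modest. Of the clones that rose, 15 did so by at least 2-fold, 60 by 1.5 to 2-fold and 61 by less. Of those that fell, 2 did so by at least 2-fold, 42 by 1.5 to 2-fold and 63 by less. The median change was 0.60 log2 among the risers (range 0.39 to 3.36) and -0.57 log2 among the fallers (range -1.50 to -0.38), beside 0.02 over all clones. The median standard error over all clones was 0.15 log2.

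**Figure D2:**
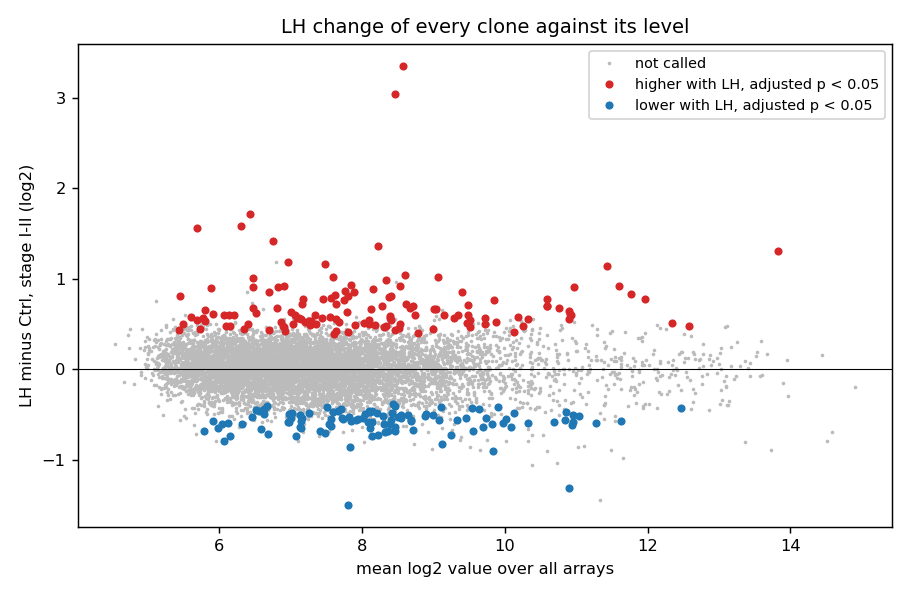
Each point is 1 of the 8175 clones, with its mean log2 value over the 42 arrays on the horizontal axis and LH minus Ctrl in stage I-II (log2) on the vertical axis; red and blue mark the 136 risers and the 107 fallers. 2 clones stand at 3.36 and 3.04, and the other risers lie at or below 1.72.

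The largest rise was that of clone tcbk0013.j.13. Its log2 value was 7.03, 7.38 and 7.81 (lowest, median, highest) on the 6 Ctrl arrays and 10.28, 10.88 and 11.01 on the 6 LH arrays. Every LH array was above every Ctrl array. The change was 3.36 ± 0.17 log2 (SE), a 10.2-fold rise (adjusted p = 3.44e-20). The 3 T0 arrays read 5.25, 5.59 and 6.17, none of them above background. With T0 floored as described with the dim clone below, the clone was 2.55-fold higher in Ctrl culture than before it. That is a rough estimate and not a minimum (adjusted p = 4.15e-09 in the limma test on the values as given). The higher control signal of the T0 arrays cannot be told apart from culture here.

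Clone 1rt34l03_b_f02 showed the next largest rise. Its log2 value was 6.66, 6.86 and 8.93 (lowest, median, highest) in Ctrl and 9.90, 10.23 and 10.70 with LH. The groups did not overlap. The change was 3.04 ± 0.22 log2 (SE), an 8.24-fold rise (adjusted p = 3.81e-14). 1 Ctrl array, replicate 19, stood apart at 8.93, with the other 5 at or below 6.92. On that array the scanner file gives 158 intensity units at the matched position, or 6.90 log2 after normalization, so the high value is in the table alone. Without replicate 19 of Ctrl the change was 3.40 log2. The T0 arrays read 6.89 to 7.55, overlapping Ctrl.

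**Figure D3:**
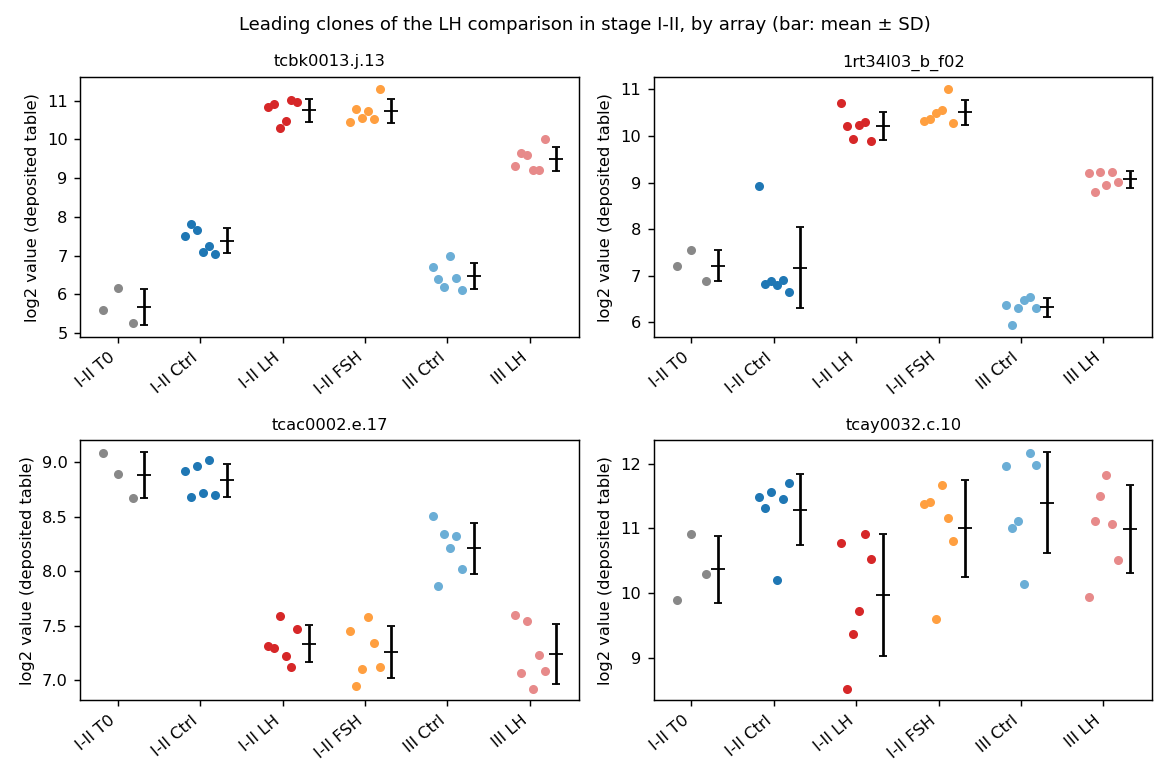
Log2 values of the 4 leading clones on each array of 6 groups, with 1 point per array and a bar for mean ± SD beside each group. The 2 upper clones are higher on every LH array than on every Ctrl array in both stages, and tcac0002.e.17 is lower on every LH array in each stage.

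A further 2 risers were singled out after their values were seen, for their place at the ends of the signal range. Clone 1rt65f10_d_c05 was among the brightest, at 12.66, 12.93 and 13.30 (lowest, median, highest) in Ctrl and 13.96, 14.10 and 14.67 with LH, a rise of 1.31 ± 0.17 log2 (SE, adjusted p = 3.97e-07). Its T0 arrays read 14.28 to 14.83, so it was lower in Ctrl culture than before culture, and its LH values overlapped those at T0. Of its 6 neighbouring clones on the membrane, 4 were also called higher. Whether signal from this spot reaches its neighbours was not tested. The table's highest value is 15.04, and several arrays shared a top scanner reading of 34468. This clone's own readings were lower, at 8645 to 10621 units in Ctrl and 13481 to 19233 with LH. The part of a ceiling in its values was not tested.

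Clone tcba0028.m.20 was dim. It was above background on 0 of 6 Ctrl arrays and on all 6 LH arrays, at 5.42, 5.80 and 5.98 in Ctrl and 6.29, 7.05 and 10.84 with LH (lowest, median, highest). Since Ctrl was not above background, a floored change was taken. In it each array of the dim group counts at its dimmest clone above background, or at the clone's own value if that is higher. By it the clone was 3.12-fold higher with LH (adjusted p = 0.00362 in the limma test on the values as given). A floored change is a rough estimate and not a minimum, since clones at higher values can be under background. On Ctrl replicate 24, for example, 1rt83h14_d_d07 read 6.32 and was not above background. 1 array decided the size of the rise. Without LH replicate 34, at 10.84, the floored change was 1.96-fold (adjusted p = 0.0006 in the limma test). Its scanner reading on that array was 2276 units, against 82 to 129 on the other 5 LH arrays. In all, 23 of the 136 risers were above background on no Ctrl array, beside 1321 of all 8175 clones. They include 5 of the 15 clones that rose by at least 2-fold, so those folds are rough. Of the 23, 6 were above it on no LH array either, so that these 6 have no measured fold. Of the 107 fallers, 5 were above background on no LH array, beside 1346 of all clones, so their folds are rough as well. The floored change was above 0 for 21 of the 23, but for the 6 it rests on values under background in both groups. With each of the 23 at its floored change, the median rise of the list was 0.59 log2, which is no minimum either.

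The largest fall was that of clone tcac0002.e.17, at 8.68, 8.82 and 9.02 in Ctrl and 7.12, 7.30 and 7.59 with LH (lowest, median, highest). Every LH array was below every Ctrl array. The change was -1.50 ± 0.14 log2 (SE, adjusted p = 9.4e-11), a 2.83-fold fall. This clone lies beside a brighter spot in block M02, where the median of all clones was -0.35, and with equal block medians its change was -1.14 log2 (adjusted p = 1.12e-08). The T0 arrays read 8.67 to 9.09, overlapping Ctrl.

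Clone tcay0032.c.10 showed the next largest fall, at 10.21, 11.48 and 11.70 in Ctrl and 8.53, 10.13 and 10.92 with LH. These groups overlapped. The change was -1.32 ± 0.36 log2 (SE, adjusted p = 0.0316), and it was no longer called in 8 of the 12 fits that leave out 1 array. With equal block medians it was -1.05 log2 (adjusted p = 0.0981). This clone touches a far brighter spot.

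The risers moved on every LH array. Relative to the Ctrl mean, the median riser stood at 0.48 to 0.75 log2 on the 6 LH arrays, with all 8175 clones at -0.02 to 0.04. The arrays chose these clones, so these values describe them and test nothing. Of the 136 risers, 76 had no overlap between LH and Ctrl arrays, where 138 of all clones (1.69%) had none in that direction. Of the 107 fallers, 58 had none, where 154 of all clones (1.88%) had none. Of these calls, 66 risers and 29 fallers were called in all 12 fits that leave out 1 array. LH replicate 34 weighed most: without it 80 clones rose and 35 fell, and without LH replicate 33 the counts were 189 and 153. Fallers numbered 61 and 43 without LH replicates 31 and 32, and 62, 54 and 52 without Ctrl replicates 20, 21 and 23. Risers numbered 85 without LH replicate 32 and 83 without Ctrl replicate 23.

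By level, 73 of the 136 risers were in the highest of 3 equal classes of mean signal, 38 in the middle and 25 in the lowest. The fallers had 68, 25 and 14. The risers had a median of 7.47 at T0, 7.66 in Ctrl and 8.30 with LH, and the fallers 8.53, 8.49 and 7.86. The median over all clones was 7.16 in each of these 3 groups. The lists were chosen on LH minus Ctrl, so the gap between those medians is a description. Single clones varied widely, from -2.34 to 2.92 log2 between T0 and Ctrl among the risers. Between T0 and Ctrl, 1142 clones were higher in Ctrl (14%) and 1112 lower (13.6%), 2254 in all (27.6%), and 3067 had an unadjusted p under 0.05 (37.5%). The T0 arrays also had a higher control signal than Ctrl, which cannot be told apart from culture. Comparisons with Ctrl share its 6 arrays, so these values are set side by side only.

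Clone IDs begin with a name of the clone library. Among libraries with at least 80 clones, the share that rose was 3.65% in tcad (16 of 439), 2.92% in tcbi (4 of 137), 2.08% in tcav (3 of 144), 2.05% in tcba (17 of 831) and 1.96% in tcac (5 of 255). It was 1.88% in tcay (26 of 1386), 1.41% in 1rt (40 of 2834), 1.22% in tcbk (23 of 1888), 1.01% in tcaa (1 of 99) and 0 of 87 in tcab, beside 1.66% of all clones. The differences between libraries were not tested. The tissue source of each library is not given in those labels.

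The fallers were concentrated on the membrane. Of the 107, 73 (68.2%) lay in blocks P01 to P04 and M02, which hold 662 clones (8.10%), and 0 of the 136 risers did. Block P03 held 20 fallers, P04 20, M02 19, P02 12 and P01 2. The median change of all clones was -0.39 to -0.27 log2 in these 5 blocks and -0.23 to 0.22 in the other 59. The blocks were singled out after these values were seen. When each block of each array was set to the same median, 172 clones rose (2.1%) and 98 fell (1.20%). Of the 136 risers 98 were kept (72.1%), and of the 107 fallers 30 (28.0%), 3 of them in the 5 blocks. Without those blocks, 124 clones rose (1.65%) and 29 fell (0.386%) among 7513. The number of risers also varied by block: E03 held 9, D03 8, I03 8, J01 7 and K03 7. The median change of all clones in those blocks was 0.11, 0.17, 0.19, 0.07 and 0.15 log2. In the table as deposited, blocks P01 to P04 and M02 held 0 risers, so leaving them out does not test the rises. With equal block medians, 21 of the 172 risers lay in these blocks (12.2%). For most of the falls, LH and position on the membrane cannot be told apart in this table. Most of the rises were also called with equal block medians, and the part of position in them was not tested further.

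**Figure D4:**
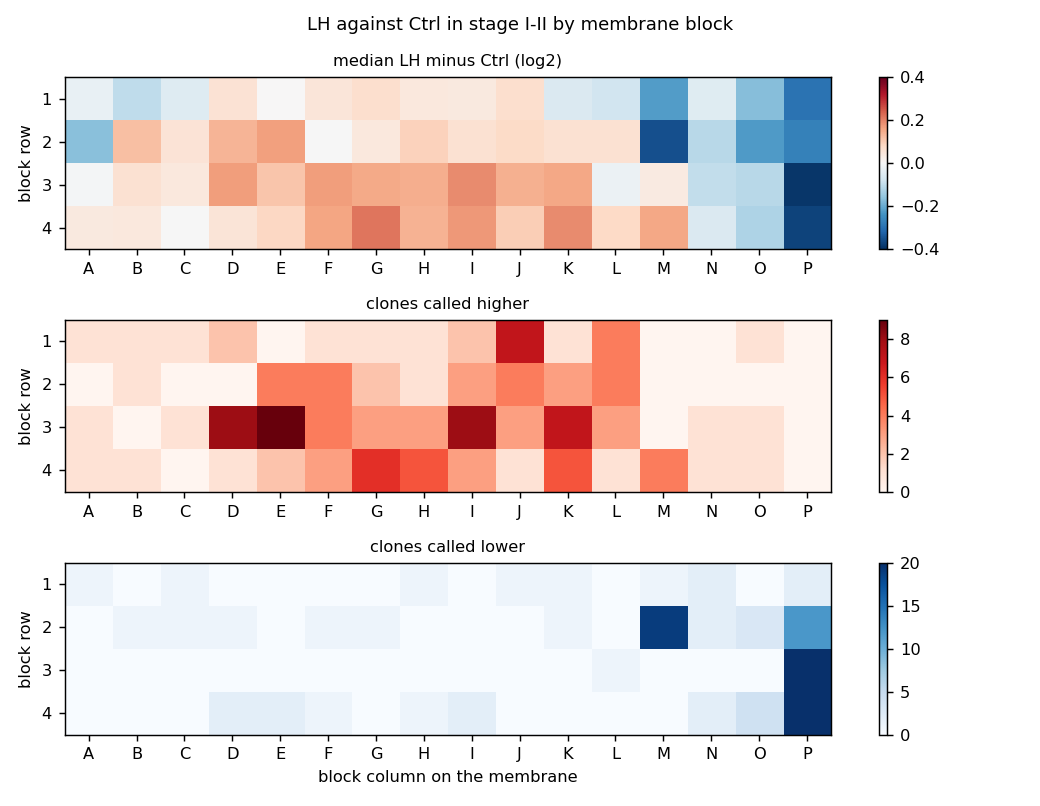
The 64 blocks of the membrane in 16 columns (A to P) and 4 rows, coloured by the median LH minus Ctrl of their clones (log2, top), the number of clones called higher (middle) and the number called lower (bottom). Column P and block M02 have medians of -0.39 to -0.27 and hold 73 of the 107 fallers and 0 risers.

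Spots lie close together on the membrane. Of the 136 risers, 45 touched a spot over 4 times brighter, as did 44 of the 107 fallers and 4260 of all 8175 clones (52.1%). A call of the same direction was touched by 39 risers and 58 fallers. The share of all clones that touched a call was not counted, so these 2 counts are a description only. Without the clones beside such brighter spots, 124 clones rose and 99 fell, in a fit that keeps fewer clones. Among them were 91 of the 136 risers and 63 of the 107 fallers, and the rest were not called over all 8175 clones. Clone tcbk0013.j.13 touched no such brighter spot, but 3 of its 8 neighbours were called higher, the largest by 1.56 log2. Of the 7 neighbours of 1rt34l03_b_f02, 0 were called.

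A core of 34 risers and 7 fallers was called in the table as deposited, with equal block medians, on the scanner values, with the control signal as a covariate and in all 12 fits that leave out 1 array. This core was formed after the data were seen and carries no test of its own. Its risers changed by 0.54 to 3.36 log2 (median 0.92), with medians of 7.17 at T0, 7.41 in Ctrl and 8.25 with LH. Of them, 28 were above background on all 12 arrays and 5 on no Ctrl array. Its fallers changed by -1.50 to -0.59 log2 (median -0.74), with medians of 8.18, 8.84 and 7.33. Of the 7, 1 lay in the 5 blocks, tcac0002.e.17. The 15 clones that rose by at least 2-fold were all called on the scanner values, with equal block medians and in the 12 fits. With the covariate, 13 of the 15 were. Of all 136 risers, 77 were called on the quantile-normalised scanner values, as were 26 of the 107 fallers.

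Stage III testis, given the same dose of LH, offers the same comparison on 12 other arrays. Their values did not enter the stage I-II changes. They did enter the same fit, and so the estimate of spread per clone behind the stage I-II lists. In stage III, 36 clones rose (0.44%) and 10 fell (0.122%), 46 in all (0.563%), and 789 had an unadjusted p under 0.05 (9.65%). Clone tcbk0013.j.13 rose from 6.12, 6.42 and 7.0 in Ctrl to 9.20, 9.46 and 10.01 with LH (lowest, median, highest), a change of 3.02 ± 0.17 log2 (SE, adjusted p = 2.33e-18). Clone 1rt34l03_b_f02 rose from 5.94, 6.34 and 6.54 to 8.80, 9.11 and 9.23, a change of 2.75 ± 0.22 log2 (SE, adjusted p = 1.49e-12). In stage III Ctrl each of these clones was above background on 3 of 6 arrays, so the lower values there are near the limit of measurement. Neither clone's groups overlapped. The same 2 clones had the largest called rises in both stages. Whether they stand for the same transcript was not tested, because clones are not paired with genes here.

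Of the falls, tcac0002.e.17 changed by -0.97 ± 0.14 log2 (SE, adjusted p = 1.59e-05), from 7.86, 8.27 and 8.51 in Ctrl to 6.92, 7.16 and 7.60 with LH. The other leading fall of stage III was 1rt116k18_c_f09, from 9.46, 9.63 and 9.97 to 8.40, 8.81 and 9.04. The change was -0.93 ± 0.13 log2 (SE, adjusted p = 6.72e-06). In stage I-II the same clone fell by 0.51 log2 (adjusted p = 0.0148), from a mean of 9.84 ± 0.21 in Ctrl to 9.34 ± 0.10 with LH (SD, n = 6). At T0 of stages I-II it read 7.25 to 7.49. Clone tcay0032.c.10 was not called in stage III (-0.40 log2, adjusted p = 0.75).

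Of the 136 stage I-II risers, 26 were called higher in stage III and 0 lower, where 0.44% of all clones were called higher. A change above 0 was seen in 125 of them, against 48.6% of all clones. Their median change in stage III was 0.25 log2, beside -0.01 for all clones, and 25 of them had no overlap between stage III LH and Ctrl arrays, where 36 of all clones (0.44%) had none. On single arrays of stage III the median riser stood at 0.18 to 0.41 log2 above the Ctrl mean with LH and at -0.15 to 0.15 in Ctrl. The 6 LH arrays were all above the 6 Ctrl arrays. Of the 15 clones with a rise of at least 2-fold, 10 were called higher in stage III and all 15 had a change above 0 (median 0.85 log2). Of the 61 under 1.5-fold, 3 were called (median 0.15 log2). With equal block medians, 36 of the 136 risers were called higher in stage III and 128 had a change above 0 (median 0.22 log2), where 0.746% of all clones were called higher. Of the 34 core risers, 19 were called in stage III and 33 had a change above 0.

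Of the 107 fallers, 5 were called lower in stage III, where 0.122% of all clones were, and 93 had a change below 0, against 51.2% of all clones. Their median was -0.20 log2. Between LH and Ctrl arrays of stage III 5 of them had no overlap, where 0.281% of all clones had none. The 5 blocks moved in stage III as well: 527 of their 662 clones had a change below 0, with a median of -0.14. Outside those blocks, 31 of 34 fallers had a change below 0 in stage III, with a median of -0.22. With equal block medians, the median of the 107 was -0.08 log2, 74 were below 0, beside 4077 of all 8175 clones, and 8 were called lower, beside 0.367% of all clones. The 34 outside the blocks then had a median of -0.24 log2, with 28 below 0. The 5 blocks as a whole thus moved in the direction of their fallers in both stages. In stage III this was not particular to these blocks. Block medians there were -0.14 in H01 and -0.13 in M01, -0.04 in P04, and above 0 in columns A to E. The fallers outside the 5 blocks were mostly lower in stage III as well, with or without equal block medians.

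**Figure D5:**
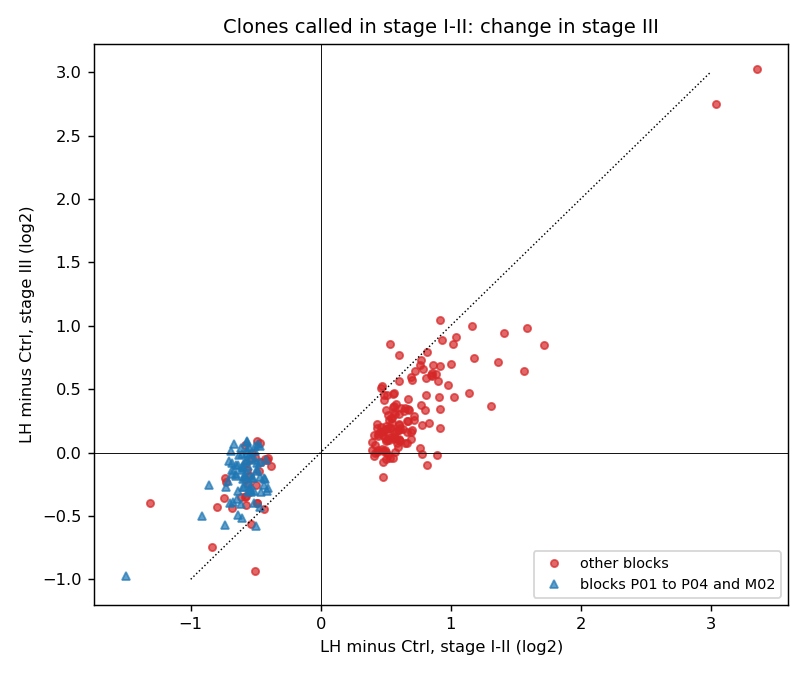
Each point is 1 of the 243 clones called in stage I-II, with LH minus Ctrl (log2) in stage I-II on the horizontal axis and stage III on the vertical axis; triangles mark clones in blocks P01 to P04 and M02, and the dotted line marks equal changes. The 2 leading clones lie near the line at 3.36 and 3.02 and at 3.04 and 2.75; most others lie nearer 0 in stage III, with 125 of 136 risers above 0 and 93 of 107 fallers below 0.

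Over all 8175 clones, the correlation (Pearson) of the LH change between the stages was 0.42, and with equal block medians 0.40. Over the 243 called clones it was 0.84, and 0.82 without the 2 leaders. Clones are not independent replicates, they share membrane position, and the 243 were chosen for large changes at both ends, so these are descriptions.

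The difference between the LH responses of the stages was tested directly. It was called for 0 of 8175 clones in limma (0%), while 557 (6.81%) had an unadjusted p under 0.05. For tcbk0013.j.13 the response in stage III minus that in stages I-II was -0.34 log2, with a 95% confidence interval of -0.81 to 0.14. For 1rt34l03_b_f02 it was -0.30 log2 (-0.92 to 0.33). Both rest on stage III Ctrl values of which 3 of 6 were above background. Clone 1rt65f10_d_c05, at 1.31 log2 in the earlier stages and 0.37 at stage III (adjusted p = 0.454), gave -0.95 log2 (-1.42 to -0.47) and an adjusted p of 0.547. The risers were called on their stage I-II values, so their lower median in stage III is no measure of a weaker response. With equal block medians, 1 clone was called, tcbk0027.h.05, named here after its values were seen. Its response was higher in stage III by 0.69 ± 0.13 log2 (SE, adjusted p = 0.0345). In that setting it was called lower with LH in stage I-II (-0.39 log2, adjusted p = 0.00937). In the table as deposited it was not called in either stage (-0.38 log2, adjusted p = 0.211 in stage I-II and 0.34 log2, adjusted p = 0.512 in stage III). Its values ran from 9.05 to 9.89 in Ctrl and 8.54 to 9.44 with LH in stage I-II, and from 8.06 to 9.04 and 8.70 to 9.25 in stage III.

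FSH at the same dose and time was compared with LH directly in stage I-II. FSH differed from LH for 5 of 8175 clones (0.0612%), 2 higher with FSH (0.0245%) and 3 lower (0.0367%), while 978 (12%) had an unadjusted p under 0.05. The 2 leading LH clones were not among them. Every FSH array had a higher control signal than every LH array, so hormone and control signal cannot be told apart here. Fewer clones were called with the control signal as a covariate. Clone tcbk0013.j.13 read 10.46, 10.64 and 11.30 (lowest, median, highest) with FSH, and FSH minus LH was -0.02 log2 (95% confidence interval -0.36 to 0.31). Clone 1rt34l03_b_f02 read 10.29, 10.43 and 11.01 with FSH, and FSH minus LH was 0.29 log2 (-0.15 to 0.74). For tcac0002.e.17 FSH minus LH was -0.08 log2 (-0.36 to 0.20).

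Clone 1rt83h14_d_d07 was higher with FSH than with LH. Its log2 value was 6.07, 6.41 and 6.70 in Ctrl, 7.16, 7.25 and 7.60 with LH and 7.51, 8.15 and 8.42 with FSH (lowest, median, highest). FSH minus LH was 0.80 ± 0.15 log2 (SE, adjusted p = 0.0146). It also rose with LH over Ctrl (0.92 log2, adjusted p = 6.69e-05), so its medians stood in the order Ctrl, LH, FSH. Only 4 of its 6 Ctrl arrays were above background, and it touches a spot over 4 times brighter. Clone tcad0009.j.11 was at 6.78, 7.23 and 7.49 with LH and 7.73, 7.95 and 8.51 with FSH, a difference of 0.79 ± 0.15 log2 (SE, adjusted p = 0.0146). With LH it was within the range of Ctrl, 6.97 to 7.52, apart from 1 array.

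Of the 3 clones lower with FSH than with LH, 1rt104l03_b_f02 differed by -0.65 log2 (adjusted p = 0.0294). Its values were 6.90 to 7.46 in Ctrl, 7.20 to 7.77 with LH and 6.50 to 7.20 with FSH. Clone tcam0002.g.21 differed by -0.60 log2 (adjusted p = 0.0352), at 10.09 to 10.76 in Ctrl, 9.55 to 10.12 with LH and 8.78 to 9.59 with FSH. It was lower than Ctrl with LH as well (-0.44 log2, adjusted p = 0.0449), a call lost in 11 of the 12 fits that leave out 1 array and kept on the scanner values (-0.65 log2, adjusted p = 0.00103). The fifth, tcay0006.p.19, named because the count is small, was at 7.75 to 8.04 in Ctrl, 8.04 to 8.46 with LH and 7.48 to 7.91 with FSH, and differed by -0.53 log2 (adjusted p = 0.0352). Its scanner values gave 7.71 to 8.04 in Ctrl, 7.58 to 7.95 with LH and 7.47 to 7.84 with FSH, all overlapping, so the rise with LH over Ctrl (0.39 log2, adjusted p = 0.0372) is in the table alone. On the scanner values LH minus Ctrl was -0.11 log2 (adjusted p = 0.71). None of the 3 lower clones was called for FSH against LH there, with adjusted p of 0.33, 0.37 and 0.903, whereas both higher clones were. In a fit on the FSH and LH arrays alone 0 clones were called, and leaving out single arrays gave 0 to 7. Of those 12 fits, 4 did not call 1rt83h14_d_d07 and 3 did not call tcad0009.j.11. Clones 1rt104l03_b_f02, tcam0002.g.21 and tcay0006.p.19 were not called in 8, 9 and 7 of them.

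Against Ctrl, 91 clones were higher with FSH (1.11%) and 49 lower (0.599%), 140 in all (1.71%), and 657 had an unadjusted p under 0.05 (8.04%). The 136 LH risers had a median FSH change of 0.43 log2 (range -0.14 to 3.34), and the 107 LH fallers one of -0.30 log2 (range -1.58 to -0.03). The 34 core risers had a median of 0.97 log2 with FSH and 0.92 with LH, and the 7 core fallers -0.87 and -0.74. These comparisons share the 6 Ctrl arrays, so the values are given side by side.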

How the data were processed

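The deposited table of log2 values was made by the authors, and its normalization and summary method are not given in the sources used here. It has 9216 rows. Of these, 64 named water, 128 named cvu03687 and 849 clones held no values, which left 8175 clones. Its column medians were 7.15 to 7.17. The authors also deposited 1 scanner export per array, which per the file headers holds spot intensity for 64 blocks and no local background. Its column of image signal for spots of constant diameter served as the linear intensity. Its column order was the same on the 12 arrays described, so that this order as a block concerns stage III alone.

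The table names clones and the exports name positions. Each clone was therefore matched to 1 position by the smallest summed squared difference of its profile over 42 arrays from quantile-normalised log2 intensity. The position was also the nearest for 93.4% of clones, with a median root mean square difference of 0.19 log2. Within the 12 arrays, table and scanner values correlated at 0.987 to 0.996 over clones, in part by construction. Over the 12 arrays the correlation per clone had a median of 0.77. Only 2 of 98088 values differed by more than 1.5 log2. Positions A11 and A12 of each block were taken as repeated controls and A07 as dim controls, an inference from the number of empty rows. A position was above background where it exceeded the dim controls' median by 3 scaled median absolute deviations.

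Group means of all 42 arrays were fitted per clone in limma 3.58.1 (R 4.3.3) with empirical Bayes moderation, with two-sided p-values and Benjamini-Hochberg adjustment per comparison. The fit was tested on simulated data. The arrays, 6 per group, limit the precision. The rule for naming called for gene symbols or, without them, the 2 clones that rose most and the 2 that fell most per comparison. A gene table of the species was at hand and holds no clone IDs, so steroidogenesis, signalling, growth factor, androgen and oestrogen target, cell cycle, stress and cell type marker lists matched 0 clones. The comparisons, lists and members were chosen with earlier results of these data known. Alternatives tried were other normalizations, the scanner values, filters on level, background and bright neighbours, trended and robust moderation, array weights, the control level as a covariate, fits on the compared groups alone, equal block medians, a stricter threshold and leaving out each array. Equal block medians in the table and leaving out 5 blocks were added after the data were seen.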

Additional observations from a re-analysis of the deposited data

Results flagged for a closer look

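Single arrays far from the rest of their group were looked for in 32 groups of 6 values by Dixon's criterion, which chance meets in about 1 of 20 groups, and 7 were found. For 1rt34l03_b_f02 it was Ctrl replicate 19 at 8.93, with a group median of 6.86. For tcay0032.c.10 it was Ctrl replicate 22 at 10.21 (median 11.48). For tcam0002.g.21 it was Ctrl replicate 21 at 10.76 (median 10.18). For tcba0028.m.20 it was LH replicate 34 at 10.84 (median 7.05). For tcbk0027.h.05 it was LH replicate 36 at 8.54 (median 9.25). For tcay0006.p.19 it was Ctrl replicate 19 at 8.04 (median 7.81). The repeated control positions were highest on Ctrl replicate 19, at 420 intensity units (median 271).

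Positions to which no clone ID was matched were tested as well. Of 850 such positions on the scanner scale, 2 were called higher with LH in stage I-II and 2 lower. The largest rise was 0.73 log2 and the largest fall -1.0 log2. On quantile-normalised scanner values 117 clones rose and 50 fell, so these positions were called no more often than clones. Their identity was not analysed here.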

How the results depend on the processing

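No paired analysis was possible because the Ctrl, LH and FSH arrays share no replicate numbers. Of the clones named, tcay0006.p.19 changed sign: LH minus Ctrl went from 0.39 log2 to -0.11 and -0.12 on quantile-normalised and median-centred scanner values and -0.18 on scanner values with equal block medians, and FSH minus LH went from -0.53 to 0.0126 in the last. Of the 243 calls, 1 riser changed sign in each of these 3 settings, and 1 faller with equal block medians on either scale. No other setting run on all 12 arrays turned a call. For LH against Ctrl in stage I-II, 243 calls (136 higher, 107 lower) became 652 (291 and 361) when LH and Ctrl arrays were fitted by themselves, 922 (449 and 473) with array weights, 49 (39 and 10) with the control signal as a covariate and 84 (62 and 22) at an adjusted p under 0.01. On quantile-normalised scanner values 117 clones rose and 50 fell, among them 77 of the 136 risers and 26 of the 107 fallers. On median-centred scanner values 131 rose and 50 fell, among them 80 of the 136 and 23 of the 107. With equal block medians on scanner values 217 clones rose, and without the 5 blocks 153 were called, 29 of them lower. Leaving out 1 array gave 115 to 342 calls, 80 to 189 higher and 35 to 153 lower. For stage III, 46 calls (36 and 10) became 18 (16 and 2) with its 2 groups fitted by themselves, 71 on quantile-normalised scanner values with 22 lower, 118 (77 and 41) and 91 (61 and 30) with equal block medians on scanner and table values, and 29, with 4 lower, at an adjusted p under 0.01. Fallers there numbered 21 on median-centred scanner values and 6 with array weights. Leaving out 1 array gave 32 to 59 calls, 27 to 47 higher and 5 to 12 lower. The stage difference gave 1 call with equal block medians on either scale, and 0 calls in all 24 fits that left out 1 array. FSH against LH, with 5 calls, gave 8 under quantile normalization or median centring of the table, on scanner values under both scalings, with the background filter, with trended and robust moderation and without the 5 blocks. It gave 9 with array weights, 1 with the covariate, 15 and 10 with equal block medians on scanner and table values, 0 with the 2 groups by themselves, 0 at an adjusted p under 0.01 and 0 to 7 without 1 array. The cause of these differences was not tested, apart from the fewer clones or arrays that a setting keeps. With 6 arrays a group and a median standard error of 0.15 log2, changes much below 0.4 log2 were not called. Changes of dim clones are rough estimates only.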
